A study of Homo sapiens with 3 samples.

Results

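BRG1 binding was examined at 40 genes of cell adhesion in the wild-type form of 12Z, an established human cell line grown from the epithelium of endometriosis. The genes were the 18 integrin alpha subunits, the 8 integrin beta subunits and 14 adaptors and kinases of the focal adhesion, taken as a fixed list of names from the 19970 protein-coding genes of the gene table. A peak was assigned to a gene when its midpoint lay in the gene body, or when the gene was the nearest protein-coding gene within 100 kb. BRG1, the product of SMARCA4, was mapped by chromatin immunoprecipitation and sequencing in 2 libraries (replicates 1 and 2), both from wild-type 12Z cells with no treatment named in the labels. The study also sequenced input chromatin without antibody, and no list of its own was used here. All libraries come from 1 cell line and 1 condition, so no comparison between conditions is possible, and the labels do not say whether the replicates were separate cultures, so that their agreement may be technical.

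Integrins are receptors built from 1 alpha and 1 beta subunit that bind matrix proteins outside the cell. Inside the cell, talins and kindlins bind the beta tail and switch the receptor on, and kinases, scaffolds and actin-binding proteins gather there to form the focal adhesion. BRG1 is the ATPase motor of SWI/SNF, a complex that slides or evicts nucleosomes and is known to act at enhancers as well as at promoters.

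Peaks called shared are those of the authors' overlap list, which held 6343 peaks, 6293 of them on chromosomes 1 to 22 and X. On these chromosomes 17323 peaks stood in the replicate 1 list and 10082 in the replicate 2 list. Every peak carries the authors' fold over background, a ratio, and the −log10 of its q-value. The lists hold no read counts, so depth is unknown and each fold stands without a read-sampling error. Peak coordinates are those of the lists, on build GRCh38.p12.

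Of the 40 genes, 17 (42.5%) had a shared peak, beside 9.67% of all protein-coding genes. Beta subunits and adaptors held most of them. Among beta subunits 6 of 8 had a shared peak, among adaptors 9 of 14, and among alpha subunits 2 of 18, a share (11.1%) near that of all genes. Alpha subunits came last in each library by itself too. In replicate 1, 6 beta subunits, 11 adaptors and 4 alpha subunits had a peak, beside 20.2% of all genes. In replicate 2 the counts were 6, 9 and 3, beside 11.5% of all genes.

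Longer genes more often had a shared peak. The part of gene length in the counts above was looked at only by size class and per Mb. The median body length was 82.8 kb for the 40 genes and 24.2 kb for all protein-coding genes. Among genes with a body of 100 kb or more, 10 of the 15 members had a shared peak, beside 24.6% of all 3351 such genes. Among shorter genes it was 7 of 25, beside 6.66% of 16619. The alpha genes had a median body of 76.0 kb and the beta genes one of 58.9 kb, while the median domain, meaning the body and the flanks from which a peak would be assigned, was 92.7 kb for alpha and 113 kb for beta genes. Of the 5 alpha genes over 100 kb, 1 (ITGA11) had a shared peak, which is near the 24.6% of all genes of that size. Of the 8 adaptors over 100 kb, 7 had one, all but TNS1. Per Mb of domain there were 13.3 shared peaks at beta subunits, 7.17 at adaptors, 2.54 at alpha subunits and 1.55 over all genes. The densities were 22.1, 17.3, 4.23 and 4.63 per Mb in replicate 1, and 16.6, 9.56, 2.96 and 2.10 per Mb in replicate 2. Alpha subunits thus lay below the value of all genes in replicate 1 and above it in replicate 2.

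The counts moved little with how a peak was assigned. With a limit of 50 kb, any base of the peak in place of its midpoint, or peaks inside several genes left out, 17 of the 40 genes had a shared peak each time, beside 8.93%, 9.7% and 9.46% of all genes. It was 17 at 1 Mb as well, beside 10.8%. Counting peaks inside gene bodies only, 15 had one, beside 5.95% of all genes, and ITGB1 and ITGB2 were lost. Requiring a −log10 q of 2 or more, a −log10 q of 3 or more, or replicate peaks that overlap each other left 16 each time, without ITGB8, beside 9.6%, 7.53% and 9.33% of all genes. No test was run on these counts, because the list was drawn up with earlier results of these data known.

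**Figure D1:**
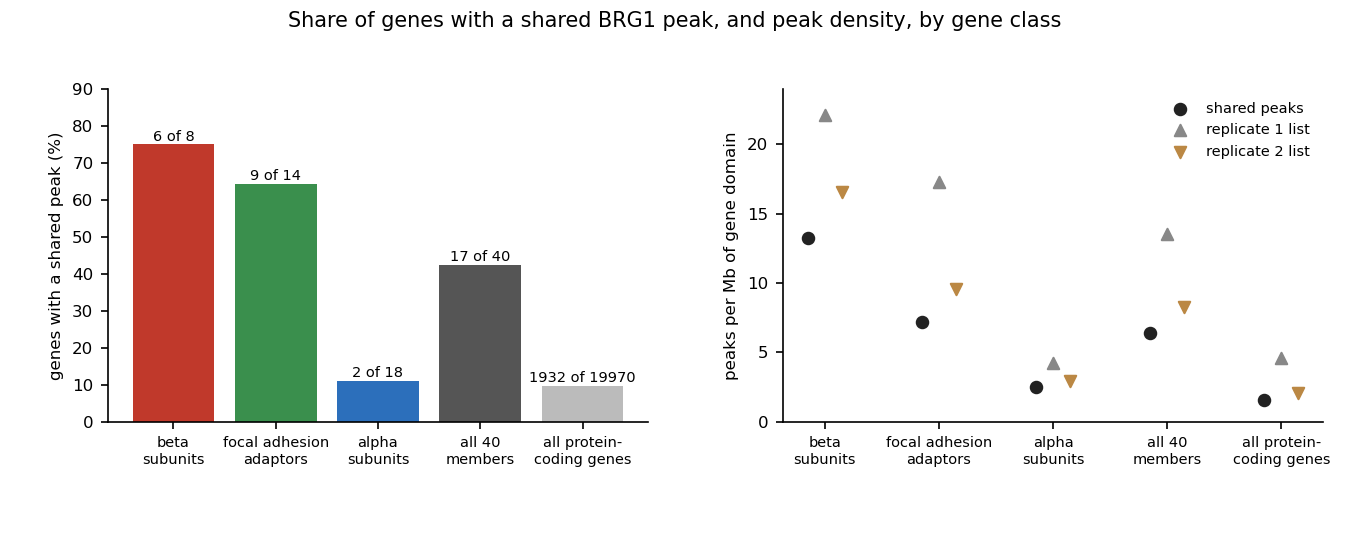
Left, the share of genes with a shared BRG1 peak (%), with counts above the bars, for beta subunits, focal adhesion adaptors, alpha subunits, all 40 members and all protein-coding genes. Right, peaks per Mb of gene domain in the overlap list (circles) and the lists of replicate 1 (triangles up) and replicate 2 (triangles down); beta subunits are highest in all 3 lists, and alpha subunits are the lowest of the 3 classes.

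The beta subunits with shared peaks were ITGB1, ITGB2, ITGB3, ITGB5, ITGB6 and ITGB8. ITGB1 encodes the beta subunit with the most alpha partners, among them the collagen and laminin receptors. Its peak at chr10:33004911-33006077, 47.3 kb upstream of the gene, had a fold of 5.09 in replicate 1 and 5.05 in replicate 2. The −log10 q of this peak in the overlap list, 8.20, was the highest of all 45 shared peaks at the 40 genes, and its fold there, 4.90, lay at percentile 99.5 of all shared peaks. A broader peak of 3366 bp at chr10:32980367-32983732, 23.8 kb upstream, was weaker and nearly equal in the libraries, with folds of 4.07 in both. No peak of any list lay inside the ITGB1 body.

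ITGB6 encodes the beta subunit of an epithelial receptor that binds latent TGF-beta. It had 4 shared peaks, 1 inside the gene and 3 between 5.40 and 28.5 kb upstream. The peak at chr2:160205384-160205968, 5.40 kb upstream, had a fold of 4.75 in replicate 1 and 4.79 in replicate 2, with a −log10 q of 5.85 in the overlap list. The neighbouring shared peak at chr2:160206950-160208537 showed a fold of 5.47 in replicate 1 and 3.86 in replicate 2. Those maxima came from different places within it, since the replicate 1 and replicate 2 peaks that it spans did not overlap each other. The peak 28.5 kb upstream had folds of 3.83 and 3.71 in replicates 1 and 2, and the one inside the gene 3.78 and 3.96.

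ITGB3 pairs with ITGAV in a receptor used as a marker of the receptive endometrium, and with ITGA2B on platelets. All of its 3 shared peaks lay inside the gene, and the same 3 were found in each library. The strongest in the overlap list, at chr17:47267385-47267723, had a fold of 4.43 in replicate 1 and 3.95 in replicate 2, with a −log10 q of 5.23 in the overlap list. The peak at chr17:47305454-47305944 ranked the other way, with 3.73 in replicate 1 and 4.67 in replicate 2. The remaining peak, at chr17:47257790-47258460, was weaker in both, with 3.59 and 3.50. Which of the first pair is the stronger therefore depends on the library.

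ITGB2, the beta subunit shared by leukocyte integrins, had a shared peak at chr21:44928813-44929133, with its midpoint 158 bp beyond the higher-coordinate end of the gene. The fold was 4.45 in replicate 1 and 3.98 in replicate 2, with a −log10 q of 6.99 in the overlap list, the fourth highest among the 45. The leukocyte alpha subunits that ITGB2 pairs with, ITGAL, ITGAM, ITGAX and ITGAD, had no peak in any list. All of these lie on chromosome 16, where 1.99% of genes had a shared peak, the lowest share of any chromosome analysed other than X. What part the chromosome has in their count was not tested.

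ITGB5 and ITGB8, which also pair with ITGAV, had 1 shared peak each. The ITGB5 peak lay inside the gene, 8.63 kb past the nearest listed start, with a fold of 4.54 in replicate 1 and 3.93 in replicate 2. The ITGB8 peak had the lowest fold (2.93) and −log10 q (1.89) of the 45 in the overlap list. Its folds were 3.46 in replicate 1 and 3.44 in replicate 2, and the replicate peaks within it did not overlap each other. Elsewhere inside ITGB8, replicate 1 alone had stronger peaks. They had folds of 4.28 and 3.85 and −log10 q values of 3.35 and 2.23. ITGAV had no peak in any list, as was the case for 15744 of the 19970 protein-coding genes. Its partners ITGB1, ITGB3, ITGB5, ITGB6 and ITGB8 all had shared peaks. The other beta genes, ITGB4 of the hemidesmosome and ITGB7 of lymphocytes, were without a peak in any list.

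Among alpha subunits, ITGA3 and ITGA11 had shared peaks. ITGA3, whose product joins the beta subunit of ITGB1 in a laminin receptor of epithelia, had 4 in a domain of 66.9 kb. The peak at chr17:50050961-50051744, 4.76 kb beyond the lower-coordinate end, had folds of 4.48 in replicate 1 and 4.94 in replicate 2, with a −log10 q of 7.06 in the overlap list. A pair inside the gene, at chr17:50062044-50062727 and chr17:50064482-50065118, had folds of 4.28 and 3.83 in replicate 1 and 3.46 and 4.01 in replicate 2. The remaining ITGA3 peak, 28.0 kb beyond the lower-coordinate end, had 3.34 in replicate 1 and 3.61 in replicate 2. DLX3 was the next nearest gene to that peak, at 32.9 kb, so its assignment rests on a small difference in distance.

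ITGA11, a collagen receptor subunit of mesenchymal cells, had 2 shared peaks inside the gene. One had folds of 3.72 in replicate 1 and 3.86 in replicate 2, and the other 3.72 and 3.60. On chromosome 15, which holds ITGA11 and the adaptor TLN2, 13.6% of genes had a shared peak.

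Of the other 16 alpha subunits, 3 had a peak in 1 replicate list and no shared peak. With ACTN4 and FERMT2 that makes 5 of the 40 genes, beside 11.5% of all genes. ITGA1 had 1 peak in replicate 1 (fold 3.47, −log10 q 1.66), inside the gene and also inside the body of PELO. ITGA5, the fibronectin receptor subunit, had 2 in replicate 1, the stronger of fold 3.98. ITGA2 had 1 in replicate 2 (fold 3.77, −log10 q 1.97), 1326 bp before its listed start. No list had a peak at the other 13, which were ITGA2B, ITGA4, ITGA6, ITGA7, ITGA8, ITGA9, ITGA10, ITGAD, ITGAE, ITGAL, ITGAM, ITGAV and ITGAX. Having no peak in any list was the common state, found for 15744 of the 19970 protein-coding genes. ITGA9, with a body of 371 kb the longest integrin gene of the list, was among them, as was ITGA8 with 206 kb. Of all genes with a body of 100 kb or more, 24.6% had a shared peak. The share of such long genes without a peak in any list was not looked at.

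**Figure D2:**
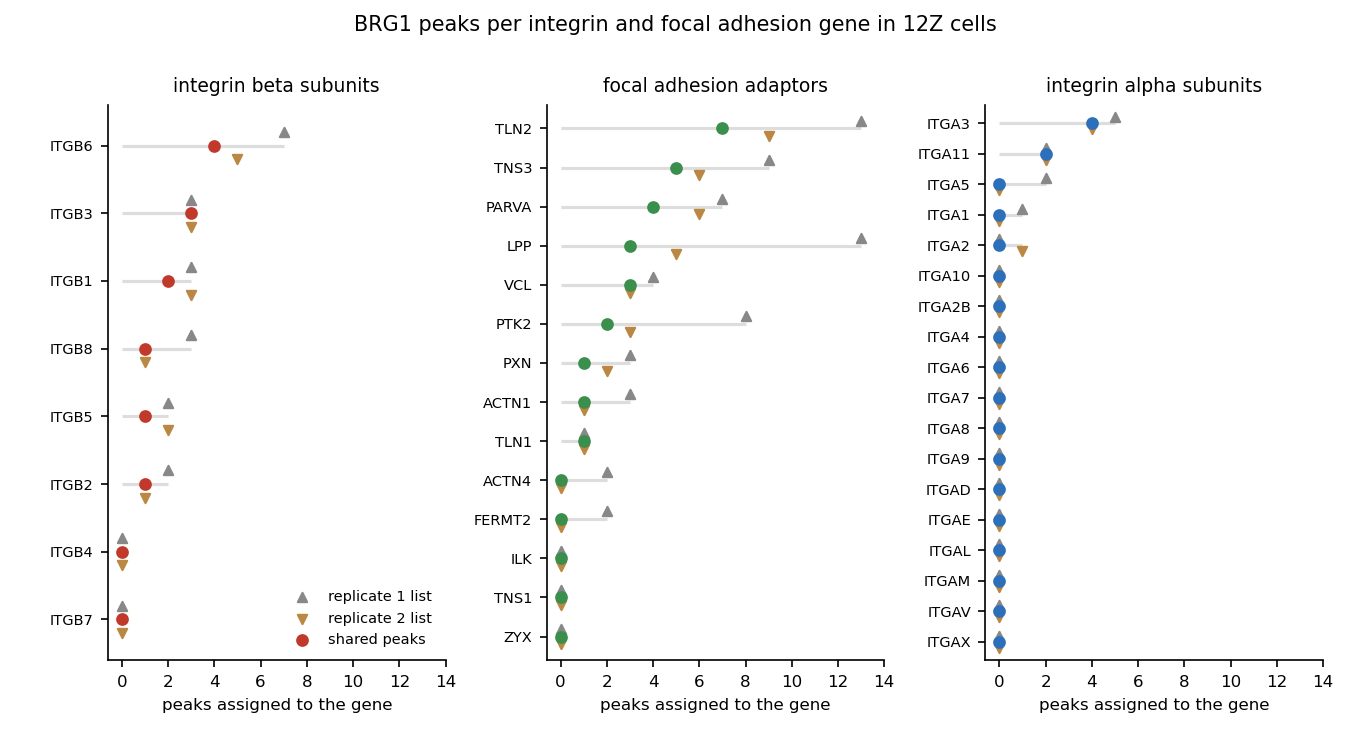
Number of peaks assigned to each of the 40 genes in the overlap list (circles) and in the lists of replicate 1 (triangles up) and replicate 2 (triangles down), in panels for beta subunits, adaptors and alpha subunits. ITGB6 leads the beta subunits with 4 shared peaks, TLN2 the adaptors with 7, and 16 of the 18 alpha subunits stand at 0 shared peaks.

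The talins link the beta tail to actin and switch integrins on. TLN2 had the most shared peaks of the 40 genes, 7 over a body of 454 kb and its downstream flank, with 13 peaks in replicate 1 and 9 in replicate 2. Each was of moderate strength, with folds of 3.02 to 3.69 in the overlap list. The pair with the highest −log10 q lay downstream, at chr15:62894762-62897513 (fold 4.70 in replicate 1 and 4.67 in replicate 2) and chr15:62928472-62929580 (4.03 and 4.74). The third downstream peak, nearest the gene, had 3.83 in replicate 1 and 3.58 in replicate 2. Inside the body, at 79.6, 216, 349 and 380 kb past the listed start, folds were 3.35 to 3.998 in replicate 1 and 3.51 to 4.51 in replicate 2, with the highest at 349 kb in replicate 1 and at 216 kb in replicate 2. TLN1 had 1 shared peak, 4.07 kb past its listed start, with folds of 3.88 in replicate 1 and 3.74 in replicate 2. FERMT2, the kindlin of most adherent cells, had 2 peaks in replicate 1, with folds of 3.85 and 3.43 and −log10 q values of 2.30 and 1.51, and none in replicate 2 or the overlap list. In all, 22 of the 40 genes had a peak in at least 1 of the 3 lists, beside 21.2% of all genes.

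Among kinases and their complex, PTK2, which encodes focal adhesion kinase, had 2 shared peaks, and 8 and 3 peaks in replicates 1 and 2. The peak inside the gene had folds of 4.07 in replicate 1 and 3.86 in replicate 2, and the other, 25.0 kb beyond the higher-coordinate end, 3.98 and 3.62. PARVA (alpha-parvin, which binds integrin-linked kinase and actin) had 4 shared peaks. The strongest, 34.2 kb beyond the higher-coordinate end at chr11:12569292-12569882, had a fold of 4.17 in replicate 1 and 4.60 in replicate 2. Its peak at chr11:12377358-12378163, 1.32 kb inside the lower-coordinate end, had the lowest folds of the 4 in both libraries, 3.35 and 3.38, from replicate peaks that did not overlap each other. The other PARVA peaks, 1 inside the gene and 1 at 21.4 kb beyond the higher-coordinate end, both had a fold of 3.40 in replicate 1 and lay at 3.77 and 3.76 in replicate 2. ILK itself, with a body of 7.10 kb, had no peak in any list.

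LPP and ZYX encode LIM proteins of the zyxin family. LPP had the peak with the second highest −log10 q of the 45, 7.57, at chr3:188294529-188295527, with folds of 4.96 in replicate 1 and 5.54 in replicate 2. Another at chr3:188348663-188349754 had 4.05 in replicate 1 and 4.82 in replicate 2. The remaining LPP shared peak had 3.68 and 3.94, from replicate peaks that did not overlap each other. Over its body of 738 kb LPP had 13 peaks in replicate 1 and 5 in replicate 2, the widest gap between the libraries among the 40 genes. ZYX, with a body of 9.77 kb, had none.

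Of the scaffolds, TNS3, a tensin that binds beta tails, had 5 shared peaks, 3 inside the gene and 2 upstream at 9.45 and 22.3 kb. The strongest shared peak of TNS3, at chr7:47361680-47362118, had a fold of 3.94 in replicate 1 and 4.08 in replicate 2. A TNS3 peak 18.8 kb upstream, with a fold of 4.24, was in replicate 1 alone. The other 2 shared peaks inside the gene had 3.84 and 3.17 in replicate 1 and 3.68 and 3.76 in replicate 2. The shared upstream pair had 3.39 and 3.81 in replicate 1 and 3.42 and 3.64 in replicate 2. TNS1, a related tensin with a body of 234 kb, had no peak in any list. PXN, encoding paxillin, had 1 shared peak inside the gene, with 3.54 and 3.90 in replicates 1 and 2.

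VCL, encoding vinculin, which reinforces the link between talin and actin, had 3 shared peaks, all inside the gene. The peak at chr10:73999305-73999929 lay 1501 bp past the listed start and had a fold of 4.49 in replicate 1 and 3.71 in replicate 2. Those at 58.4 and 81.3 kb past the start had 4.13 and 3.82 in replicate 1 and 4.04 and 4.61 in replicate 2. Of the actin cross-linkers, ACTN1 had 1 shared peak inside the gene (folds 4.31 and 4.04 in replicates 1 and 2). A stronger ACTN1 peak, with a fold of 4.92 and a −log10 q of 4.56, was in replicate 1 alone. ACTN4 had 2 peaks in replicate 1 alone, the stronger with a fold of 3.45 and a −log10 q of 1.55.

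**Figure D3:**
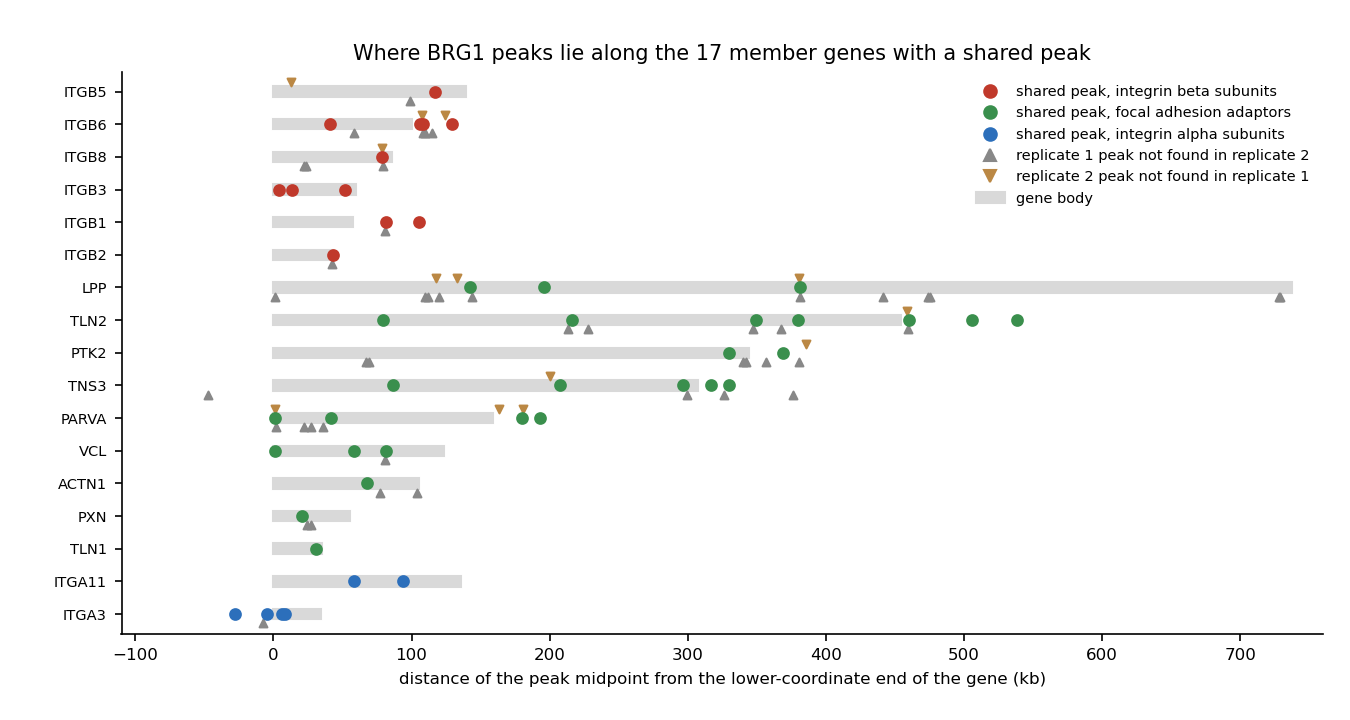
Position of peak midpoints along the 17 genes with a shared peak, as distance in kb from the lower-coordinate end of each gene, with grey bars for gene bodies, coloured circles for shared peaks and triangles for peaks of 1 replicate not found in the other. Of the 45 shared peaks, 29 lie inside a body, and those of ITGB1 lie only outside it.

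The shared peaks at these genes were mostly far from gene starts. Of the 45, 29 (64.4%) lay inside a gene body, beside 56.9% of all 3244 shared peaks assigned to a gene. At most 3 kb from either end of any protein-coding gene lay 3 (6.67%), beside 11.7% of all. They belonged to ITGB2, PARVA and VCL, so that 3 of the 40 genes had a gene-end peak, beside 1.79% of all genes. With a −log10 q of 3 or more it was 2 (ITGB2 and VCL), beside 1.07%, and within 1 kb of an end it was 1 (ITGB2), beside 0.806%. For 31 of the 45 the RefSeq promoter table listed a start of the assigned gene, at a median distance of 55.0 kb. Among these, 1 peak, that of VCL, lay within 3 kb of such a start. The distance to a start was not set beside that of all shared peaks, whose genes may be shorter. ITGB2 and PARVA had no listed start, so whether their gene-end peaks lie at a start was not looked at. No shared peak lay inside the body of another protein-coding gene, and 23 had another one within 100 kb. Distance alone does not show which gene a peak acts on.

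In strength they resembled other shared peaks. The median fold of the 45 was 3.52, beside 3.47 for all shared peaks assigned to a gene, and the median −log10 q was 3.67, beside 3.44. A −log10 q of 5 or more in the overlap list was reached by 6 (13.3%), beside 14.9% of all. These 6 lay at ITGB1, LPP, ITGA3, ITGB2, ITGB6 and ITGB3. None reached 5 in both replicates at once. Their median width was 806 bp, beside 992 bp.

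**Figure D4:**
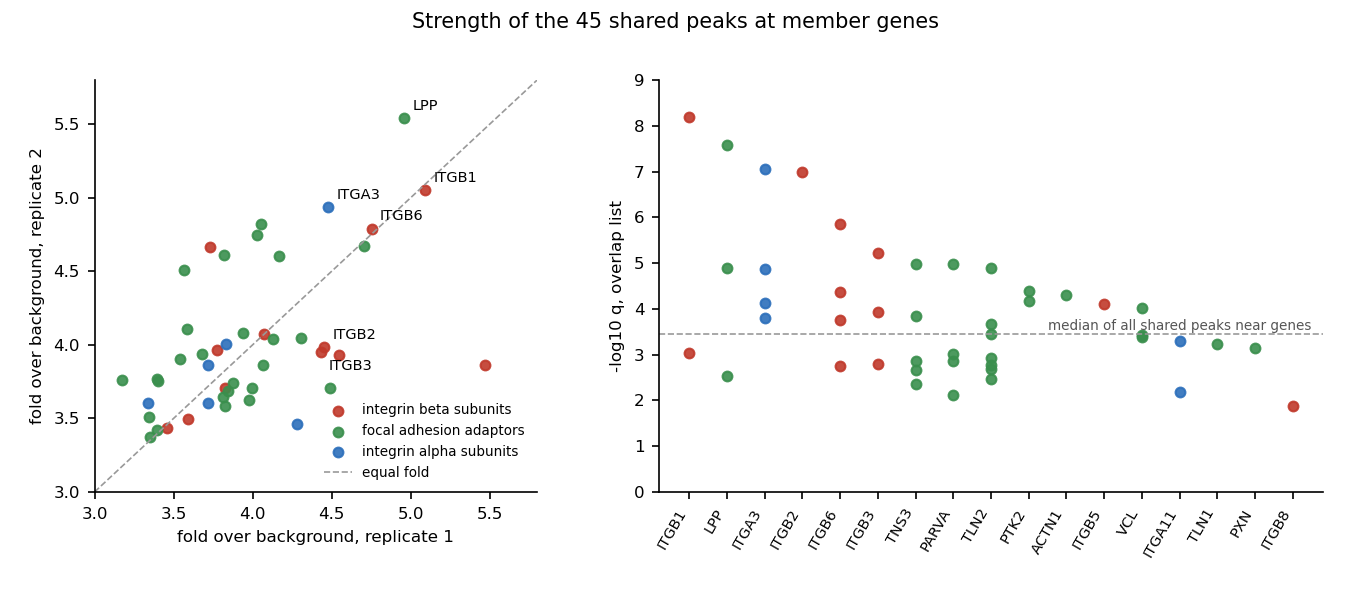
Left, fold over background of each of the 45 shared peaks in replicate 1 (x) and replicate 2 (y), taking the highest replicate peak that overlaps it; the dashed line marks equal fold, and the 6 peaks of highest −log10 q are named. Right, −log10 q in the overlap list for each gene with a shared peak, with the median of all shared peaks near genes (3.44) dashed; ITGB1 is highest at 8.20 and ITGB8 lowest at 1.89.

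The libraries differed in how many of these peaks they held. Of the 95 replicate 1 peaks at the 40 genes, 42 (44.2%; 95% Wilson interval 34.6 to 54.2%) overlapped a replicate 2 peak, beside 33.0% (interval 32.1 to 34.0%) of all 9662 replicate 1 peaks near genes. Of the 58 replicate 2 peaks, 44 (75.9%; interval 63.5 to 85.0%) overlapped a replicate 1 peak, beside 74.1% of all 4396. The intervals treat peaks as independent and cover the counting of peaks only. Replicate 1 peaks found in replicate 2 had a median −log10 q of 2.66, and the 53 not found had 1.86. For 21 of the 45 shared peaks the fold was higher in replicate 1 and for 24 in replicate 2. In 41 of the 45, replicate peaks within the shared peak overlapped each other (91.1%, beside 94.2% of all). The exceptions were 1 peak each of ITGB6, ITGB8, LPP and PARVA.

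More of the 40 genes had a peak at a gene end in replicate 1 than in replicate 2. Within 3 kb of a gene end, replicate 1 had peaks at 7 of the 40 genes (ACTN1, ITGA5, ITGB2, LPP, PARVA, PTK2 and VCL), beside 5.86% of all genes, and replicate 2 at 4 (ITGA2, ITGB2, PARVA and VCL), beside 2.57%. Of the 29 members with a start in the RefSeq promoter table (GRCh38.p14), 3 had a peak over the 250 bases before a listed start, and each of these peaks was in replicate 1 alone. Their folds were 3.98 at ITGA5, 3.36 at ACTN1 and 3.11 at LPP, beside a median of 3.53 over all replicate 1 peaks, so that the ITGA5 peak lay above it and the others below. Their −log10 q values were 2.51, 1.52 and 1.39. Their bases before the start are shown because, among these 29 members, no other listed promoter lay under a peak. The promoters of the other 11 members were not looked at. Sequences run 5′ to 3′ on the gene's strand, and capitals mark the letters GGAATG or their reverse complement CATTCC, the core recognised by TEAD factors. The stretches are chr12:54419325-54419447 (minus strand, bases 181 to 59 before the start) for ITGA5, chr14:68977567-68977816 (minus strand, bases 250 to 1) for ACTN1 and chr3:188154073-188154156 (plus strand, bases 84 to 1) for LPP.
ITGA5: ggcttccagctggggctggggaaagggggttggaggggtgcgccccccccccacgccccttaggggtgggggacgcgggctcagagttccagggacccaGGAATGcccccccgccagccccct
ACTN1: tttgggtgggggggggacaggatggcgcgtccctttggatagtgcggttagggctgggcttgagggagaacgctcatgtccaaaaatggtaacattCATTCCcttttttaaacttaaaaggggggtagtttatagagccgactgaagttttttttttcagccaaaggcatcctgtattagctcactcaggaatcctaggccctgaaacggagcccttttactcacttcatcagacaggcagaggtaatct
LPP: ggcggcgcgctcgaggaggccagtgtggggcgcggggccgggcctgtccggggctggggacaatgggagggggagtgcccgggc

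ITGA5 and ACTN1 held 1 match each, and LPP held none. On both strands, GGAATG occurred in the same stretch of 5.33% (ITGA5), 10.5% (ACTN1) and 3.05% (LPP) of 22155 listed promoters of protein-coding genes. The AP-1 letters TGANTCA and the GC box GGGCGG, also searched on both strands and not overlapping these matches, were in none of the 3 stretches. In the same stretches of all these promoters, TGANTCA occurred in 2.67% (ITGA5), 5.36% (ACTN1) and 1.82% (LPP). For GGGCGG the shares were higher, at 35.6, 53.7 and 37.2% in the same order. G and C made up 74.8% of the ITGA5 stretch, 48.0% of that of ACTN1 and 81.0% of that of LPP, beside medians of 62.6, 62.0 and 65.5% over the same stretches of all these promoters. A match is only a run of letters and does not show binding by the factor.

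Of 56 other focal adhesion genes on a separate list, 15 had a shared peak (26.8%, beside 9.67% of all genes). A replicate 1 peak was found at 31, beside 20.2% of all genes, and a replicate 2 peak at 17, beside 11.5%. DAB2, an endocytic adaptor that binds beta tails, led with 7 shared peaks in or around a body of 53.3 kb, the highest fold being 4.32. TNS4, a tensin of epithelial cells, had 3, and 4 genes had 2 each, the kinase genes FYN and PAK2 among them. The median body of these 56 genes was 58.1 kb.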

How the data were processed

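Per the labels' protocols, formaldehyde-fixed chromatin of 12Z cells was digested with micrococcal nuclease, briefly sonicated and precipitated with an anti-BRG1 antibody. The submitters' processing notes name MACS2, Bowtie2, bedtools, Picard, SAMtools, cutadapt and Trim Galore, on build GRCh38.p12, with no versions named. The authors deposited 3 broad peak lists with, per peak, a fold enrichment (a ratio), −log10 p and −log10 q values and a score, the last not used. The sources do not state how the overlap list was called. Its fold and −log10 q are the authors' values across libraries, with no replicate error, and served to describe and rank peaks within their list.

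Peaks were assigned in Python 3.11.15 (numpy 2.4.6, pandas 2.3.3, scipy 1.17.1, matplotlib 3.10.9) to protein-coding genes of RefSeq GRCh38.p14; patch releases keep the chromosome coordinates of the build. All 40 symbols matched. A midpoint inside several bodies counted for each gene. Starts and strands came from the RefSeq promoter table, which matched 29 members. The assignment was tested on simulated data. The members and lists were chosen with earlier results of these data known, and the size classes after seeing the data, so counts stand beside those of all genes with no test. Every member was to be accounted for, with at most 4 genes named per other list. Alternatives covered distance, peak position, −log10 q, overlap and single replicate lists.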

Additional observations from a re-analysis of the deposited data

How the results depend on the processing

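The number of the 40 genes with a shared peak, 17, was 15 to 17 under the 8 alternatives that used the overlap list; the one that asks replicate peaks to overlap each other was chosen after seeing the data. All 17 genes also had a peak in each replicate list alone. Each of the 45 shared peaks overlapped a peak of both lists, so this was nearly fixed in advance. Without replicate 1 there were 18 genes, beside 11.5% of all genes, and without replicate 2 there were 21, beside 20.2%. In the overlap list the share of all genes was 9.67%. The 45 shared peaks became 29 with gene bodies only, and 58 to 95 in a single replicate list (without replicate 1 or 2). The median fold of 3.52 became 3.69 with a −log10 q of 3 or more, with 3.72 to 3.86 in the lists of 1 replicate. Alpha subunits with a peak, 2 in the overlap list, were 3 without replicate 1 and 4 without replicate 2, beside the same shares of all genes. Gene-end members numbered 3, beside 1.79% of all genes, against 1 with windows of 1 kb (ITGB2), beside 0.806%. They numbered 4 without replicate 1, beside 2.57% of all genes, and 7 without replicate 2, beside 5.86%. The share of replicate 1 peaks found in replicate 2 moved from 44.2% to 23.2% when 50% of both peaks had to overlap and to 70.6% (12 of 17) at a −log10 q of 3 or more. The share of replicate 2 peaks found in replicate 1 moved from 75.9% to 37.9% and 91.7% (11 of 12). A stricter overlap lowers these shares by its construction, and gene bodies only or windows of 1 kb can only lower a count. The replicate lists also held more peaks, 17323 and 10082 on chromosomes 1 to 22 and X, beside 6293 in the overlap list. For the other changes the cause was not tested. No paired analysis was possible because the design has 1 condition and no test. Depth is unknown, so whether a gene without a peak is unbound cannot be told from these lists.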

Other observations

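Genes of integrin ligands were also examined. Of 30 on a separate list, chosen with earlier results of these data known, 14 had a shared peak (46.7%, beside 9.67% of all genes). A replicate 1 peak was found at 19, beside 20.2% of all genes, and a replicate 2 peak at 15, beside 11.5%. The median body of these 30 genes was 48.3 kb, beside 24.2 kb for all protein-coding genes. TNC, encoding tenascin-C, a matrix protein of remodelling tissue, led with 6 shared peaks, 13 in replicate 1 and 8 in replicate 2, and a highest fold of 3.96 in the overlap list. LAMA4, a laminin alpha chain of vessels and stroma, had 3. Another 7 genes had 2 each, among them CCN1 and CCN2, matricellular proteins that bind integrins, with bodies of 3.19 and 3.20 kb. The ligand genes VTN, SPP1 and THBS1 had no peak in any list; these 3 were chosen after their values were seen.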
